A study of Capra hircus with 29 samples.

Results

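The 9 genes described here encode the kinase cascade that starts with MOS and the proteins that hold an egg at, or release it from, metaphase of the second meiotic division. They were chosen by name from what the proteins are known to do, although earlier results of these data were known. The genes were MOS, MAP2K1, MAP2K2, MAPK3, FBXO5, FBXO43, FZR1, CAMK2G and PPP2R5C. Each of the 9 had its own line among the 21343 genes of the expression table, and their levels were followed over 29 oocyte samples in 6 groups.

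MOS is a kinase made from stored maternal mRNA during oocyte maturation. It activates MAP2K1 and MAP2K2 (MEK1 and MEK2), which activate the ERK kinases, among them MAPK3 (ERK1), and this activity keeps the mature egg from entering anaphase or interphase before fertilisation. The anaphase-promoting complex, a ubiquitin ligase, destroys cyclin B to end metaphase. FZR1 is among its activators, and FBXO5 (EMI1) and FBXO43 (EMI2) inhibit it. At fertilisation a calcium signal through CaM kinase II, of which CAMK2G is the form best known in eggs, starts the removal of FBXO43. PPP2R5C is a regulatory subunit of protein phosphatase 2A of the B56 family, which binds FBXO43 and counters its phosphorylation.

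The oocytes came from Ji'ning grey goats of a high and a low fertility group, with limits of 3 and 2 kids a birth, and from follicles of 3 sizes. The sources differ on whether litters at the limits themselves were included. High fertility oocytes were HLO from large, HMO from medium and HSO from small follicles, and low fertility oocytes were LLO, LMO and LSO in the same order. HSO had 4 samples, with replicate numbers 1, 3, 4 and 5, and each of the other groups had 5 samples, numbered 1 to 5. Oocytes were pooled by stage, as the paper words it for the high fertility group, and divided into samples of a few oocytes each. The goats behind a sample were not given, and samples of the same pool are not replicate goats. Every p-value below thus measures the spread between these samples, which may be technical, and not that between goats.

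Expression was given as FPKM, the fragments mapped to a gene divided by the length of its exons and scaled to all mapped fragments of the library, which allows levels of different genes to be set side by side within this scale. FPKM sums per sample ranged from 222697 to 490048 with a median of 425859. The number of fragments behind a value could not be read from the FPKM, because low values shared no common step between samples. Among 5283 low genes, at most 6.52% of those above 0 in both samples of a pair shared 1 ratio. Values near 0 were for that reason described as listed, without a detection limit.

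The most abundant markers of the oocyte stood far above those of other ovarian cells, but not all of them did. Of 9 oocyte markers 7 had a line in the table and 6 of them had a mean above 0.5 FPKM, with ZP3, a zona pellucida protein, the most abundant at 1406 FPKM, and GDF9, a growth factor secreted by oocytes, at 312 FPKM. FIGLA had 9.55 FPKM and NLRP5 0.303 FPKM. The sum of the oocyte markers ranged from 422 to 9059 FPKM over the samples, the highest in HSO 5. Of 10 granulosa and cumulus markers 9 had a line and 2 had a mean above 0.5 FPKM, with HAS2 the most abundant at 1.45 FPKM; the list's sum ranged from 1.16 to 9.30 FPKM. AMH was listed at 0 in all 29 samples, LHCGR in 27 and FSHR in 17. Of 5 theca and stroma markers 3 had a line, DCN had a mean of 7.95 FPKM, from 1.95 to 16.7 FPKM, and INSL3 was listed at 0 throughout. None of 3 endothelial and 4 leukocyte markers had a mean above 0.5 FPKM.

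A total of 3 libraries stood apart and are named before the results. On the second principal component of log2(FPKM + 1), which held 17.0% of the variance, LLO 2 lay at 92.7 and LLO 5 at 101, whereas the other samples lay between -37.1 and 20.3. LMO 2 had the lowest FPKM sum, 222697, with 347806 the next lowest. Several of the values below were also taken without LLO 2 and LLO 5 or without LMO 2. In pooled oocytes, fewer cells holding a transcript and less of it per cell cannot be told apart.

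The 9 genes fell into 3 ranges of level. MAP2K1 had the highest mean over the 29 samples, 37.9 ± 12.2 FPKM (SD), above the means of 94.8% of all genes in the table. MOS followed with 27.4 ± 33.8 FPKM, and FBXO5 (13.9 ± 4.70), PPP2R5C (12.7 ± 4.55) and FBXO43 (11.5 ± 5.65 FPKM) lay close together. The FZR1 mean was 1.12 ± 0.897 FPKM and that of CAMK2G 0.788 ± 0.436 FPKM. MAPK3, at 0.189 FPKM, and MAP2K2, at 0.102 FPKM, came last.

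Neighbours within a range changed places from sample to sample, and MOS, with its wide spread, lay inside the range of FZR1 in its low samples. MAP2K1 exceeded MOS in 20 of 29 samples, with a mean difference per sample of 1.42 ± 2.07 (SD) on the log2(FPKM + 1) scale. MOS exceeded FBXO5 in 14 of 29 samples (-0.03 ± 1.83), so its higher mean came with an almost even split between samples. FBXO5 exceeded PPP2R5C in 17 samples and PPP2R5C exceeded FBXO43 in 21. At the steps between ranges, FBXO43 exceeded FZR1 in 29 of 29 samples (2.52 ± 0.67), and CAMK2G exceeded MAPK3 in 29 of 29. FZR1 was above CAMK2G in 23 samples and MAPK3 above MAP2K2 in 24.

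**Figure D1:**
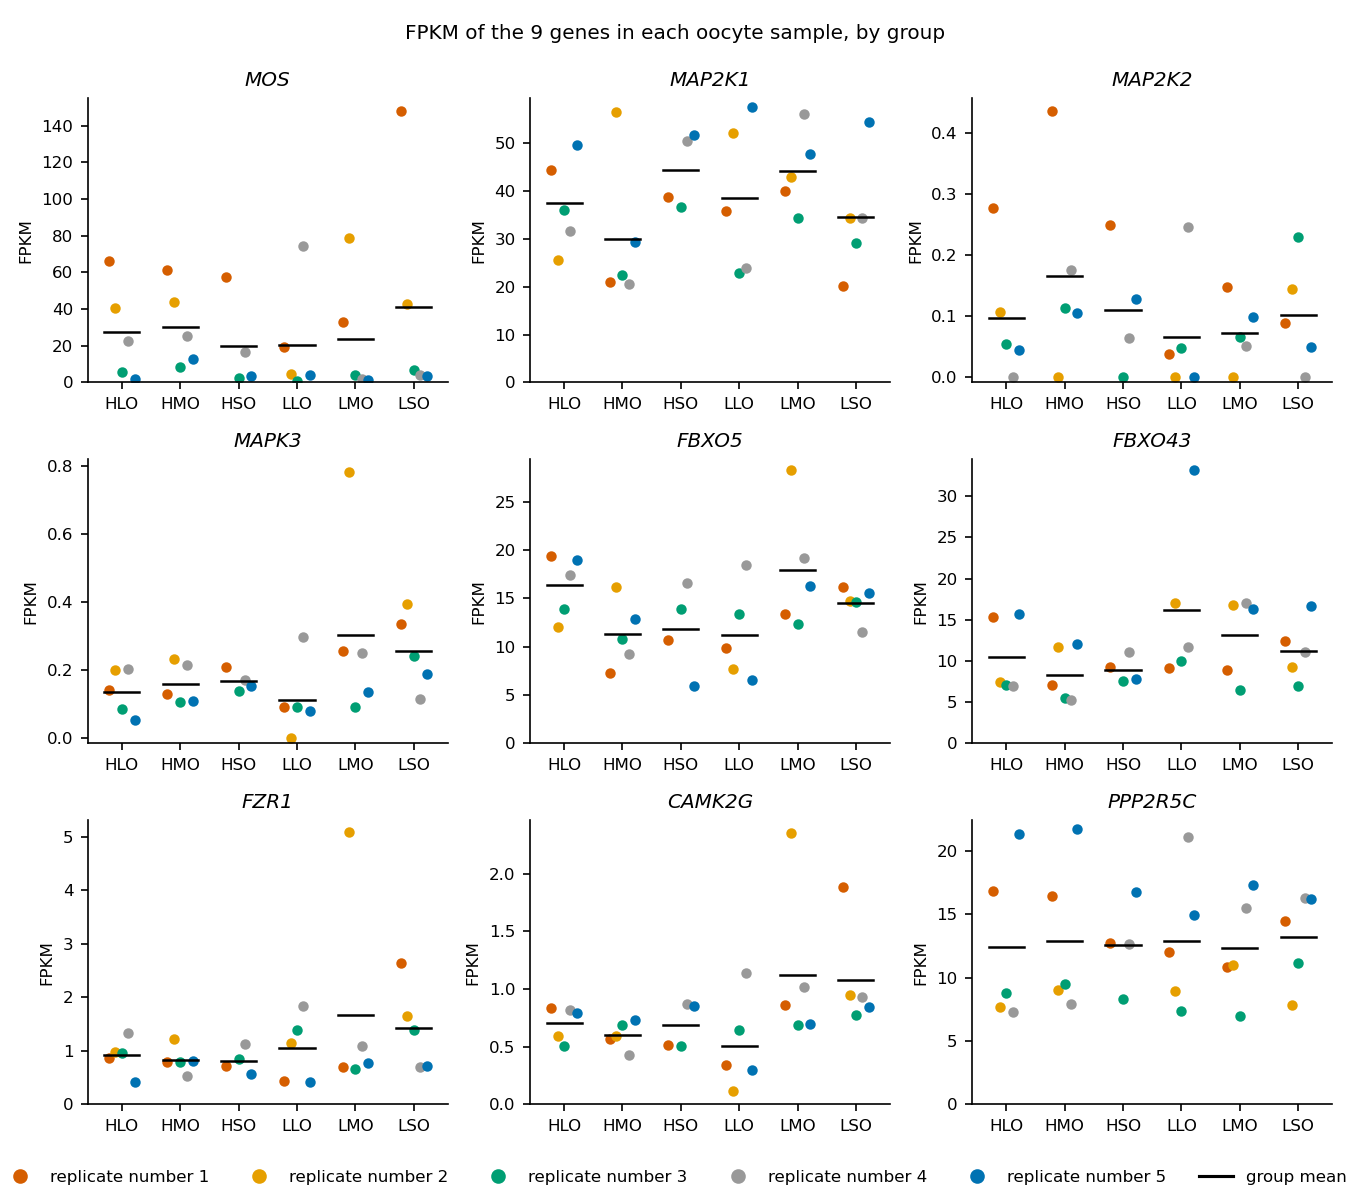
Each panel plots 1 gene in FPKM for the 29 samples by group, with a point per sample coloured by replicate number and a bar at the group mean. MOS reaches 148 FPKM in LSO 1 and 0.607 FPKM in LLO 3, while MAP2K1 stays between 20.1 and 57.5 FPKM.

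MOS, the kinase at the head of the cascade, was the most variable of the 9 genes. In large follicles, MOS stood at 66.4, 40.5, 5.68, 22.6 and 1.73 FPKM in HLO 1 to 5 and at 19.3, 4.53, 0.607, 74.6 and 4.22 FPKM in LLO 1 to 5. In medium follicles, MOS stood at 61.4, 43.7, 8.33, 25.5 and 12.6 FPKM in HMO and at 33.2, 79.0, 3.99, 1.72 and 1.41 FPKM in LMO. In small follicles, MOS stood at 57.3, 2.44, 16.9 and 3.58 FPKM in HSO 1, 3, 4 and 5 and at 148, 42.5, 6.54, 4.18 and 3.39 FPKM in LSO. High and low samples of MOS were found in each of the 6 groups, and at each follicle size the high and low fertility samples overlapped. LMO 3, LMO 4 and LMO 5 lay below every HMO sample, and LSO 1 was the highest of all.

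The highest MOS value was 244 times the lowest. Its SD on the log2(FPKM + 1) scale, 1.86, was above that of 99.2% of the 9692 genes tested over all samples, whereas that of MAP2K1, 0.47, was above that of 38.3%. By group mean the order for MOS was LSO (40.9 ± 62.0 FPKM), HMO (30.3 ± 22.2), HLO (27.4 ± 26.7), LMO (23.9 ± 33.6), LLO (20.7 ± 31.0) and HSO (20.0 ± 25.7 FPKM). Single samples set much of this order: the mean was 14.2 ± 19.0 FPKM in LSO without LSO 1 and 10.1 ± 15.4 FPKM in LMO without LMO 2. Without LLO 2 and LLO 5 the LLO mean was 31.5 ± 38.5 FPKM, above those of HMO and HLO. No neighbours in this order differed by more than the larger of their SDs.

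MAP2K1, the MEK kinase that MOS phosphorylates, was abundant in every sample. In large follicles, MAP2K1 stood at 44.4, 25.6, 36.0, 31.7 and 49.6 FPKM in HLO and at 35.9, 52.0, 22.8, 23.8 and 57.5 FPKM in LLO. In medium follicles, MAP2K1 stood at 21.1, 56.5, 22.3, 20.6 and 29.3 FPKM in HMO and at 39.9, 42.9, 34.4, 56.0 and 47.6 FPKM in LMO. In small follicles, MAP2K1 stood at 38.6, 36.7, 50.4 and 51.7 FPKM in HSO and at 20.1, 34.4, 29.1, 34.3 and 54.5 FPKM in LSO. The HLO samples lay inside the range of LLO. In medium follicles 4 of 5 HMO samples were below every LMO sample and HMO 2 was above all of them, and in small follicles 4 of 5 LSO samples were below every HSO sample and LSO 5 was above all of them. The group means ran from 44.3 ± 7.80 FPKM in HSO and 44.2 ± 8.16 FPKM in LMO through LLO (38.4 ± 15.9), HLO (37.5 ± 9.66) and LSO (34.5 ± 12.6) to 30.0 ± 15.2 FPKM in HMO. Without LLO 2 and LLO 5 the LLO mean was 27.5 ± 7.26 FPKM, below that of HMO.

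The other MEK gene and the ERK1 gene were near the bottom of the scale. MAP2K2 was listed at 0 in 7 of 29 samples and reached 0.435 FPKM in HMO 1, with a median of 0.0661 FPKM. MAPK3 was listed at 0 in LLO 2 alone and reached 0.781 FPKM in LMO 2, with a median of 0.154 FPKM. MAP2K2 was above 0.5 FPKM in 0 samples and MAPK3 in 1. Both missed the filter for testing, which asked for values over 0.5 FPKM in 4 or more samples of the fit, so the tests below cover 7 of the 9 genes.

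FBXO5 inhibits the anaphase-promoting complex in prophase of the first meiotic division. In large follicles, FBXO5 stood at 19.3, 12.0, 13.9, 17.4 and 19.0 FPKM in HLO and at 9.90, 7.68, 13.3, 18.4 and 6.59 FPKM in LLO. In medium follicles, FBXO5 stood at 7.31, 16.2, 10.7, 9.27 and 12.9 FPKM in HMO and at 13.4, 28.3, 12.4, 19.2 and 16.3 FPKM in LMO. In small follicles, FBXO5 stood at 10.7, 13.9, 16.6 and 5.98 FPKM in HSO and at 16.1, 14.7, 14.6, 11.6 and 15.6 FPKM in LSO. LLO 1, LLO 2 and LLO 5 were below every HLO sample, whereas HMO 1, HMO 3 and HMO 4 were below every LMO sample. The groups still overlapped at each size. The order of means was LMO (17.9 ± 6.38 FPKM), HLO (16.3 ± 3.22), LSO (14.5 ± 1.77), HSO (11.8 ± 4.56), HMO (11.3 ± 3.41) and LLO (11.2 ± 4.80 FPKM).

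FBXO43, the inhibitor that maintains the arrest at metaphase II, was in the same range as FBXO5. In large follicles, FBXO43 stood at 15.4, 7.39, 7.06, 6.95 and 15.7 FPKM in HLO and at 9.11, 17.1, 10.1, 11.7 and 33.1 FPKM in LLO. In medium follicles, FBXO43 stood at 7.05, 11.7, 5.53, 5.25 and 12.0 FPKM in HMO and at 8.94, 16.8, 6.49, 17.1 and 16.4 FPKM in LMO. In small follicles, FBXO43 stood at 9.24, 7.53, 11.1 and 7.87 FPKM in HSO and at 12.4, 9.24, 7.03, 11.1 and 16.6 FPKM in LSO. The highest values were those of low fertility samples, led by LLO 5, and LMO 2, LMO 4 and LMO 5 lay above every HMO sample. The HSO samples all lay inside the range of LSO, so that no pair of groups was separated. Group means were 16.2 ± 9.93 FPKM in LLO, 13.1 ± 5.03 in LMO, 11.3 ± 3.61 in LSO, 10.5 ± 4.61 in HLO, 8.92 ± 1.60 in HSO and 8.31 ± 3.32 FPKM in HMO. Without LLO 2 and LLO 5 the LLO mean was 10.3 ± 1.33 FPKM, below that of HLO.

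The balance between the 2 inhibitors differed from sample to sample. The ratio of FBXO43 to FBXO5 was above 1 in 1 of 14 high fertility and 4 of 15 low fertility samples, with 5.02 in LLO 5 and 2.22 in LLO 2, both among the libraries that stood apart. LMO 5 (1.005) and LSO 5 (1.07) lay just above 1, below the high fertility sample, HSO 5 at 1.31. Group medians of the ratio were 0.615 in HLO, 0.920 in LLO, 0.724 in HMO, 0.667 in LMO, 0.765 in HSO and 0.767 in LSO, and no test was run on it.

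FZR1 (CDH1), an activator of the anaphase-promoting complex that FBXO5 and FBXO43 oppose, was low. CDC20, another activator of the complex, had 2 lines under its name and so is uncertain. Its lines had means of 15.9 ± 7.61 and 0.0533 FPKM. FZR1 ranged from 0.426 FPKM in HLO 5 to 5.08 FPKM in LMO 2, and the next highest sample was LSO 1 at 2.65 FPKM. Group means were 1.66 ± 1.92 FPKM in LMO, 1.42 ± 0.804 in LSO, 1.04 ± 0.615 in LLO, 0.914 ± 0.323 in HLO, 0.830 ± 0.245 in HMO and 0.818 ± 0.234 FPKM in HSO. The 3 low fertility groups had the higher means and also the larger SDs, and LMO 2 stood alone above the other LMO samples, which lay between 0.657 and 1.09 FPKM. Without LMO 2 the LMO mean and SD, 0.808 ± 0.197 FPKM, were below those of HMO.

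CAMK2G, the calcium-dependent kinase of egg activation, was lower still by its mean. It ranged from 0.115 FPKM in LLO 2 to 2.35 FPKM in LMO 2, followed by LSO 1 at 1.88 FPKM. The group means were 1.12 ± 0.701 FPKM in LMO, 1.08 ± 0.457 in LSO, 0.709 ± 0.149 in HLO, 0.688 ± 0.203 in HSO, 0.604 ± 0.118 in HMO and 0.507 ± 0.400 FPKM in LLO. The mean was 0.707 FPKM in LLO without LLO 2 and LLO 5, next to HLO, and 0.817 FPKM in LMO without LMO 2. At each follicle size the samples of the fertility groups overlapped.

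PPP2R5C had nearly the same mean in each group, from 12.3 ± 4.09 FPKM in LMO to 13.2 ± 3.64 FPKM in LSO. In large follicles, PPP2R5C stood at 16.8, 7.70, 8.75, 7.26 and 21.3 FPKM in HLO and at 12.0, 8.95, 7.33, 21.1 and 14.9 FPKM in LLO. In medium follicles, PPP2R5C stood at 16.4, 9.03, 9.48, 7.92 and 21.7 FPKM in HMO and at 10.8, 11.0, 6.97, 15.4 and 17.3 FPKM in LMO. In small follicles, PPP2R5C stood at 12.7, 8.27, 12.7 and 16.7 FPKM in HSO and at 14.5, 7.84, 11.1, 16.3 and 16.2 FPKM in LSO. Values varied within each group, and the high and low fertility ranges covered each other almost completely. Over all 9 genes, neighbours in the order of group means, which are the closest groups by construction, were within the larger SD in 45 of 45 pairs. Groups further apart could exceed it, as FBXO5 did between LMO (17.9 ± 6.38 FPKM) and LLO (11.2 ± 4.80 FPKM).

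The comparison of HLO with LLO asked whether oocytes of large follicles differed between the fertility groups. MOS had a mean of 27.4 ± 26.7 FPKM in HLO and 20.7 ± 31.0 FPKM in LLO (n = 5 each), FBXO5 of 16.3 ± 3.22 and 11.2 ± 4.80 FPKM, and FBXO43 of 10.5 ± 4.61 and 16.2 ± 9.93 FPKM. The log2 difference of FPKM + 1, high minus low, was 0.82 for MOS (95% interval -1.43 to 3.06), 0.57 for FBXO5 (-0.31 to 1.45) and -0.52 for FBXO43 (-1.52 to 0.49). With each sample left out in turn, the MOS difference ranged from 0.18 (without LLO 3) to 1.57 (without LLO 4), that of FBXO5 from 0.42 to 0.76 and that of FBXO43 from -0.67 to -0.23, the last without LLO 5. By limma 0 of the 7 genes tested had an adjusted p under 0.05, as had 0% of the 8328 genes tested, and 0 of 7 had an unadjusted p under 0.05, against 4.14% of all genes (2.98% higher in HLO and 1.16% higher in LLO). Likewise 0 of 7 separated the groups without overlap, beside 0.432% of all genes. The differences of MAP2K1 (0.03), FZR1 (-0.06) and PPP2R5C (-0.09) were close to 0, and each took the other sign under array weights or under another scaling. The median difference of the 7 genes was 0.03, beside -0.09 over all genes. Without LLO 2 and LLO 5 together, the LLO mean was 31.5 ± 38.5 FPKM for MOS and 27.5 ± 7.26 FPKM for MAP2K1. It was 13.9 ± 4.30 FPKM for FBXO5 and 10.3 ± 1.33 FPKM for FBXO43. The order of the HLO and LLO means in FPKM thus turned for MOS, MAP2K1 and FBXO43 but not for FBXO5. In the fit without LLO 2 and LLO 5, the log2 differences of the 7 genes kept their signs.

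The comparison of HMO with LMO put the same question to medium follicles. MAP2K1 had a mean of 30.0 ± 15.2 FPKM in HMO and 44.2 ± 8.16 FPKM in LMO (n = 5 each), a log2 difference of -0.64 (-1.39 to 0.12; limma adjusted p = 0.614). FBXO5 differed by -0.61 (-1.32 to 0.11; limma adjusted p = 0.614) and FBXO43 by -0.59 (-1.38 to 0.21; limma adjusted p = 0.648). MOS had the largest estimate, 1.34, with an interval of -0.70 to 3.38, and ranged from 0.84 (without LMO 5) to 2.10 (without LMO 2) with each sample left out in turn. By limma 0 of 7 genes had an adjusted p under 0.05, beside 0.0715% of 8390 genes, and 0 of 7 had an unadjusted p under 0.05, beside 8.67% of all genes (5.09% higher in HMO and 3.58% higher in LMO). The groups were without overlap in 0 of 7, beside 1.7% of all genes. The median difference was -0.36 for the 7 genes and -0.07 for all genes.

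A change of weighting moved MAP2K1 and FBXO43 across the threshold in medium follicles. With limma's array weights, which give each library a weight by its fit, MAP2K1 differed by -0.92 (adjusted p = 0.0457) and FBXO43 by -0.999 (adjusted p = 0.0457), while 1011 genes in all had an adjusted p under 0.05. Over the 8 alternatives other than leaving out 1 sample, the adjusted p of MAP2K1 ranged from 0.0457 to 0.652 and that of FBXO43 from 0.0457 to 0.709. Without HMO 2, the only HMO sample with MAP2K1 above all of LMO, the MAP2K1 difference was -0.89 (limma adjusted p = 0.253). The FZR1 difference was -0.34 with LMO 2 and 0.01 without it.

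The comparison of HSO with LSO covered small follicles. MOS had a mean of 20.0 ± 25.7 FPKM in HSO (n = 4) and 40.9 ± 62.0 FPKM in LSO (n = 5), a log2 difference of -0.52 (-3.05 to 2.01), which became 0.28 without LSO 1 and 1.25 under array weights. MAP2K1 differed by 0.41 (-0.36 to 1.17), FBXO5 by -0.35 (-1.10 to 0.39) and FZR1 by -0.36 (-0.92 to 0.20). With each sample left out in turn they ranged from 0.24 (without LSO 1) to 0.59 for MAP2K1, from -0.53 to -0.0885 (without HSO 5) for FBXO5 and from -0.47 to -0.20 (without LSO 1) for FZR1. By limma 0 of 7 genes had an adjusted p under 0.05, beside 0.0119% of 8376 genes, and 0 of 7 had an unadjusted p under 0.05, beside 4.41% of all genes (2.04% higher in HSO and 2.36% higher in LSO), and 0 of 7 separated the groups, beside 2.05%. The median difference was -0.28 for the 7 genes and -0.01 for all genes.

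Over all 3 follicle sizes, with size as a covariate, FBXO43 was the gene with the smallest p. Its mean was 9.27 ± 3.39 FPKM in the 14 high fertility samples and 13.5 ± 6.60 FPKM in the 15 low fertility samples. The log2 difference was -0.46 with a standard error of 0.21 (95% interval -0.88 to -0.04), and limma gave an unadjusted p = 0.0313 and an adjusted p = 0.473. FBXO43 thus failed the adjustment over all genes, and 1 of 7 genes with an unadjusted p under 0.05 stood beside 9.99% of the 9692 genes tested, of which 6.59% were higher in low and 3.39% higher in high fertility. By limma 0 of 7 genes had an adjusted p under 0.05, beside 0.0103% of all genes.

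The FBXO43 difference was smaller without the libraries that stood apart. Without LLO 2, LLO 5 and LMO 2 it was -0.28 (limma adjusted p = 0.960), and in fits with 1 sample left out it lay between -0.53 and -0.37. In 7 of the 29 such fits the difference no longer had an unadjusted limma p under 0.05. Under array weights it was -0.62 (adjusted p = 0.0413), when 691 genes had an adjusted p under 0.05; over the 8 alternatives the adjusted p ranged from 0.0413 to 0.960. The other genes differed over all sizes by 0.59 (MOS, -0.78 to 1.95, although its mean in FPKM was 26.3 in high and 28.5 in low fertility), -0.25 (FZR1, -0.58 to 0.08), -0.14 (CAMK2G), -0.12 (FBXO5), -0.09 (MAP2K1, 0.01 under median-of-ratios scaling) and -0.04 (PPP2R5C, 0.06 under the same scaling). Leaving out LMO 2 gave -0.13 for FZR1 and -0.0703 for CAMK2G, leaving out HSO 5 gave -0.0372 for FBXO5, and leaving out HMO 4 gave -0.0315 for MAP2K1. The median of the 7 was -0.12 and that of all genes -0.04.

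**Figure D2:**
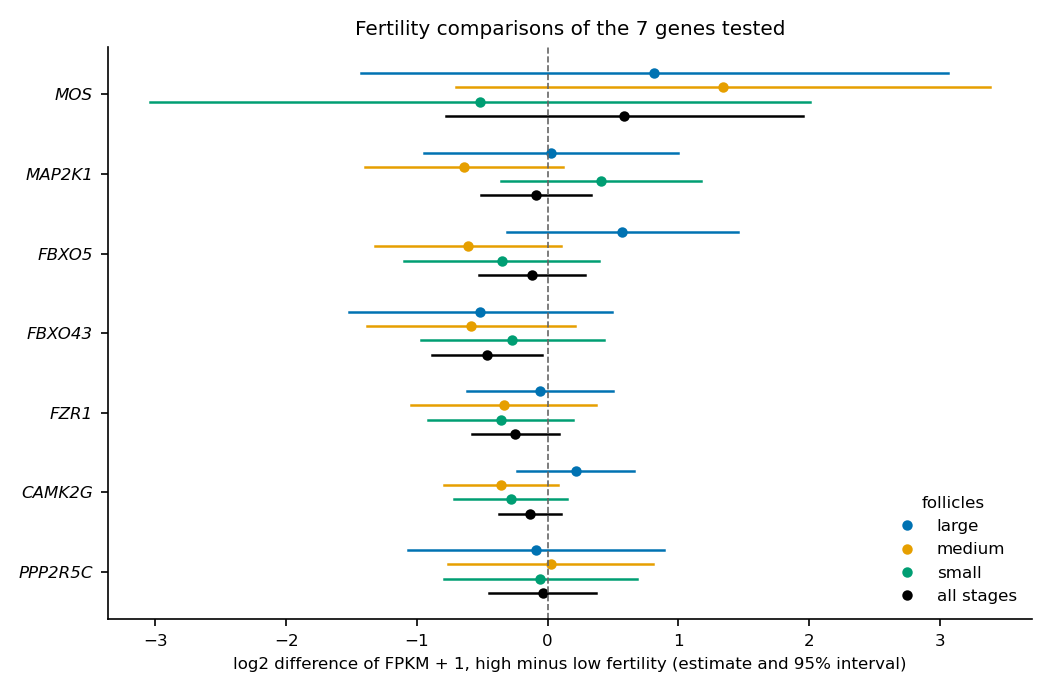
Points give the log2 difference of FPKM + 1, high minus low fertility, for the 7 genes tested, with 95% intervals from limma, by follicle size and over all stages. The interval of FBXO43 over all stages, -0.88 to -0.04, leaves out 0, and that of MOS in small follicles, -3.05 to 2.01, is the widest. In 7 of 29 fits with 1 sample left out, FBXO43 over all stages no longer had an unadjusted limma p under 0.05.

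Follicle size was compared over all samples with the fertility group as a covariate, to ask whether levels differ as the follicle grows. By limma's F-test 0 of 7 genes had an adjusted p under 0.05, as had 0% of 9692 genes, and 0 of 7 had an unadjusted p under 0.05, beside 1.66% of all genes. CAMK2G had the smallest unadjusted p, 0.221 by limma, and MAP2K1, PPP2R5C, FBXO5 and MOS had unadjusted p-values between 0.919 and 0.932. Large and medium follicles thus showed no detected difference from small ones in any of the 7 genes, within the spread given above.

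The interaction test asked whether the fertility difference itself depended on follicle size. FBXO5 differed by 0.57 in large, -0.61 in medium and -0.35 in small follicles, and limma's F-test of the interaction gave F = 4.05, an unadjusted p = 0.0286 and an adjusted p = 0.548. CAMK2G followed with 0.22, -0.36 and -0.28 (limma unadjusted p = 0.0802), but with 0.12 without LLO 2, -0.18 without LMO 2 and -0.16 without LSO 1, and MAP2K1 with 0.03, -0.64 and 0.41 (limma unadjusted p = 0.1097). By limma 0 of 7 genes had an adjusted p under 0.05, as had 0% of 9692 genes, and 1 of 7 had an unadjusted p under 0.05, beside 7.89% of all genes. Without LLO 2, LLO 5 and LMO 2 the unadjusted p of FBXO5 was 0.239 and that of MAP2K1 0.0421 (limma adjusted p = 0.918 and 0.725).

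The other genes of these pathways were taken as 6 lists, and in each list 0 genes had an adjusted p under 0.05 by limma in any of the 6 comparisons by fertility and size. Of the MAP kinase cascade around MOS 14 of 14 genes had a line and 10 were tested over all samples. DUSP6, a phosphatase of ERK, was the most abundant at 7.71 ± 3.75 FPKM, and CPEB1, which controls polyadenylation of MOS mRNA, had a mean of 2.01 ± 1.92 FPKM. At an unadjusted p under 0.05 the list had 1 gene in medium follicles, DUSP1 with -0.62 (limma unadjusted p = 0.0263, adjusted p = 0.510), and 1 in small follicles, BRAF with -0.41 (limma unadjusted p = 0.0490, adjusted p = 0.880), beside 8.67% and 4.41% of all genes. BRAF, a kinase that like MOS activates MEK, had a mean of 0.582 FPKM in HSO and 1.12 FPKM in LSO with no overlap, as had 2.05% of all genes in that comparison. In medium follicles BRAF went the other way, with 1.21 FPKM in HMO and 0.788 FPKM in LMO (log2 difference 0.29). For follicle size 1 of 10 had an unadjusted p under 0.05, RPS6KA3, a kinase downstream of ERK (limma unadjusted p = 0.0458, adjusted p = 0.999983), beside 1.66% of all genes. For the interaction it was again 1 of 10, DUSP1 (limma unadjusted p = 0.0248, adjusted p = 0.530), beside 7.89%.

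The anaphase-promoting complex, its activators and E2 enzymes had 18 of 18 genes in the table, and 16 were tested over all samples. ANAPC15 was the most abundant at 1055 ± 475 FPKM. In medium follicles 3 of 17 lines tested had an unadjusted p under 0.05 and were higher in HMO, beside 5.09% of all genes in that direction, and 2 of the 3 were copies under the name ANAPC10. The line ENSCHIG00000023676 had a mean of 278 FPKM in HMO and 123 FPKM in LMO, a log2 difference of 1.31 (limma unadjusted p = 0.0108, adjusted p = 0.358), and the line ENSCHIG00000006491 one of 0.70 (limma unadjusted p = 0.00633, adjusted p = 0.291). ENSCHIG00000023676 differed by 0.09 in large and by -0.27 in small follicles, with 183 FPKM in HSO and 237 FPKM in LSO. ANAPC10 had 3 lines under 1 name, so its values are uncertain. The third gene was CDC16, a subunit of the complex, with 0.70 (limma unadjusted p = 0.0451, adjusted p = 0.570).

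ANAPC13, another subunit, had a mean of 138 FPKM in HSO and 70.5 FPKM in LSO with no overlap, as had 2.05% of all genes (log2 difference 1.19, limma unadjusted p = 0.0396, adjusted p = 0.880), and over all sizes it differed by 0.60 (limma unadjusted p = 0.0368, adjusted p = 0.476). In medium follicles its difference was -0.0916, with 98.1 FPKM in HMO and 106 FPKM in LMO. UBE2D1, an E2 enzyme with 2 lines under its name and so uncertain, differed by -0.92 in small follicles (limma unadjusted p = 0.0384, adjusted p = 0.880). CDC26 differed by 0.39 over all sizes (limma unadjusted p = 0.0462, adjusted p = 0.497). These made 2 of 18 lines with an unadjusted p under 0.05 by limma in small follicles and 2 of 18 over all sizes, beside 4.41% and 9.99% of all genes. For the interaction 2 lines of the list had an unadjusted p under 0.05, both ANAPC10 (limma unadjusted p = 0.0316 and 0.0445), beside 7.89% of all genes. The list's median difference was 0.13 over all sizes, beside -0.04 for all genes.

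Of the genes of the calcium signal at egg activation 12 of 12 had a line and 7 were tested. CALM2, a calmodulin gene, was the most abundant at 2132 ± 723 FPKM. PPP3CC, a catalytic subunit of calcineurin, had a mean of 12.4 FPKM in HMO and 3.67 FPKM in LMO (1.49, limma unadjusted p = 0.0115, adjusted p = 0.366), and ITPR1, the calcium channel of the endoplasmic reticulum, differed by -0.33 over all sizes (limma unadjusted p = 0.0285, adjusted p = 0.468). At an unadjusted p under 0.05 by limma, each was 1 of 7 lines of the list in its comparison, beside 8.67% and 9.99% of all genes. Of the other CaM kinase II genes, CAMK2D had a mean of 0.745 FPKM, next to 0.788 FPKM for CAMK2G, whereas CAMK2A (0.0358 FPKM) and CAMK2B (0.156 FPKM) were not tested.

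Of the phosphatase 2A subunits and inhibitors 13 of 14 genes had a line and 11 were tested. ARPP19, an inhibitor with 4 lines under its name and so uncertain, was the most abundant at 61.0 ± 23.9 FPKM and differed by 0.61 over all sizes (limma unadjusted p = 0.0474, adjusted p = 0.497), 1 of 11 lines beside 9.99% of all genes. PPP2R1B, a scaffold subunit, differed by -0.73 in medium follicles (limma unadjusted p = 0.0436, adjusted p = 0.565), 1 of 10 lines beside 8.67% of all genes. Among the B56 subunits PPP2R5C had the highest mean, 12.7 FPKM, followed by PPP2R5E with 7.85 FPKM, PPP2R5A with 0.386, PPP2R5D with 0.283 and PPP2R5B with 0.00273 FPKM.

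The 6 genes for degradation of the F-box inhibitors gave 10 lines, all tested, and the most abundant was 1 of 4 lines named SKP1, at 1217 ± 907 FPKM, which is uncertain for that reason. PLK1, the kinase that marks FBXO5 and FBXO43 for degradation, had a mean of 16.0 ± 10.3 FPKM. A line of CUL1, a gene with 2 lines and so uncertain, differed by -0.59 in small follicles (limma unadjusted p = 0.0406, adjusted p = 0.880), 1 of 10 lines beside 4.41% of all genes. Maturation promoting factor and its control had 6 of 6 genes in the table and 5 tested, led by CCNB2 at 551 ± 475 FPKM, and 0 of 5 had an unadjusted p under 0.05 by limma in any of the 6 comparisons.

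The spread within groups followed the replicate number of the samples for some of these genes. This was tested by limma's F-test over the 5 numbers, with the 6 groups as a covariate, a test added after the values had been seen. What a replicate number stands for was not given. MOS ranged from 19.3 to 148 FPKM (median 59.3) in the samples numbered 1 and from 4.53 to 79.0 FPKM (median 42.5) in those numbered 2. In the samples numbered 3, MOS ranged from 0.607 to 8.33 FPKM (median 4.84), in those numbered 4 from 1.72 to 74.6 FPKM (median 19.7) and in those numbered 5 from 1.41 to 12.6 FPKM (median 3.49). The samples numbered 1 were above those numbered 3 and those numbered 5, without overlap. The same numbers were without overlap, in either direction, in 20.1% and 3.18% of all genes tested.

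Within groups, MOS was higher in number 1 than in number 3 and than in number 5 in 6 of 6 groups, and higher in number 2 than in number 3 in 5 of 5 groups. It passed the test with F = 11.6 and a limma adjusted p = 0.000237. It passed under all 7 alternatives run for this test, with adjusted p-values from 4.16e-09 to 0.00123, and with each sample left out in turn (2.03e-05 to 0.000744). Of all genes tested 50.5% passed, so that the count of 3 of 7, MOS, PPP2R5C and FBXO43, was no larger than the background, and 3 of 7 had an unadjusted p under 0.05, beside 58% of all genes.

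PPP2R5C ranged from 14.9 to 21.7 FPKM (median 17.0) in the samples numbered 5, from 7.70 to 11.0 FPKM (median 8.95) in number 2 and from 6.97 to 11.1 FPKM (median 8.51) in number 3. Number 5 was above numbers 2 and 3 without overlap, a separation found in either direction in 17.2% of all genes, and the samples numbered 1 (10.8 to 16.8 FPKM) and 4 (7.26 to 21.1 FPKM) lay between or across them. The limma adjusted p was 0.00629, but 0.450 after median-of-ratios scaling and 0.703 after quantile normalization, the range over 7 alternatives being 1.03e-06 to 0.703. The scaling factors moved the same way: 1.27 to 1.35 in number 5 and 1.07 to 1.34 in number 1, against 0.710 to 0.906 in number 2 and 0.682 to 0.849 in number 3. PPP2R5C also followed the summed oocyte markers (Spearman rho 0.825 over 29 samples) and less so the sums of theca and stroma (0.585), leukocyte (0.399), endothelial (0.393) and granulosa markers (0.342); their part in its pattern was not tested.

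FBXO43 was higher in number 5 (7.87 to 33.1 FPKM, median 16.0) than in number 3 (5.53 to 10.1 FPKM, median 7.04) in 6 of 6 groups, although the ranges overlapped. Its Spearman rho with the summed markers was 0.483 for granulosa and cumulus and 0.401 for oocyte markers, and that of MOS was -0.364 for granulosa and cumulus and -0.383 for leukocyte markers; their part in these patterns was not tested. Its limma adjusted p was 0.0317, with 0.0806 after median-of-ratios scaling, 0.0887 after quantile normalization and 0.102 without LLO 2, LLO 5 and LMO 2. In fits with 1 sample left out it passed in 21 of 29, and without LLO 5 its adjusted p was 0.0825; over the 7 alternatives the range was 6.03e-05 to 0.102. The MAP2K1 values were also higher in number 5 than in number 3 in 6 of 6 groups, with a limma adjusted p = 0.149, and FZR1 had one of 0.121, FBXO5 of 0.778 and CAMK2G of 0.860. After median-of-ratios scaling the genes that passed were MOS, MAP2K1, FBXO5 and FZR1, 4 of 7, beside 45.5% of all genes.

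**Figure D3:**
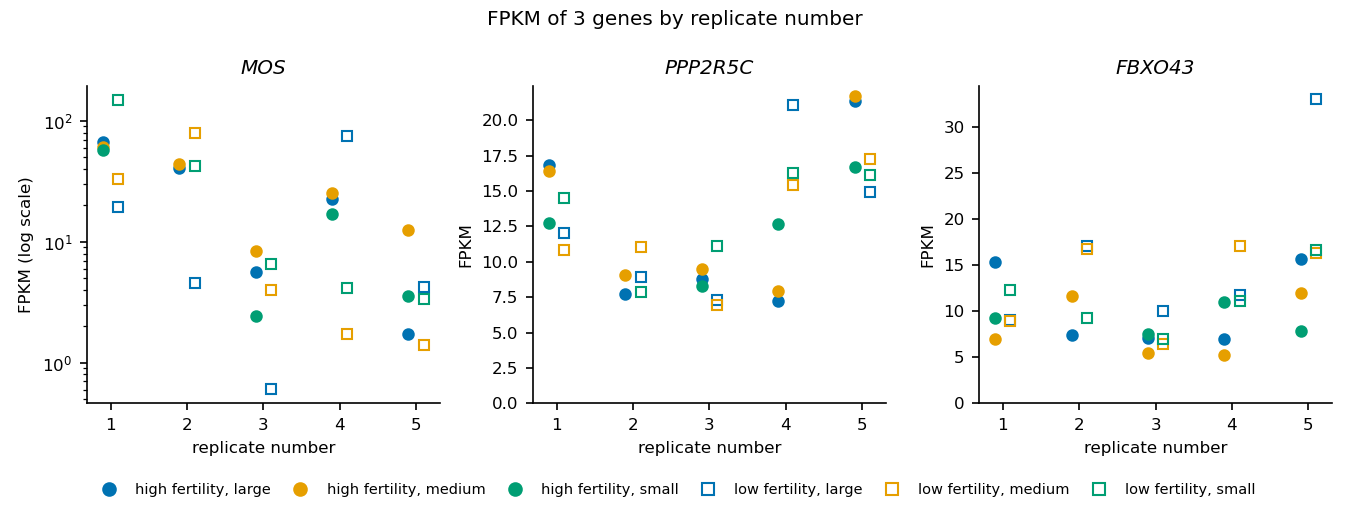
MOS (log axis), PPP2R5C and FBXO43 in FPKM by replicate number, with a point per sample, filled for high and open for low fertility and coloured by follicle size. MOS samples numbered 1 lie between 19.3 and 148 FPKM and those numbered 3 between 0.607 and 8.33 FPKM.

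The lines of the pathway lists that passed the same limma test of replicate number were counted beside 50.5% of all genes, and no test was run between lists. Of the MAP kinase list 2 of 10 lines passed, CPEB1 (adjusted p = 0.000394) and DUSP1 (adjusted p = 0.0136). Of the anaphase-promoting complex list 8 of 18 lines passed, with UBE2C at the lowest adjusted p (6.70e-05), of the calcium list 2 of 7 and of the phosphatase 2A list 5 of 11. Of the lines for degradation of the F-box inhibitors 8 of 10 passed, among them PLK1 (adjusted p = 6.70e-05), and of maturation promoting factor and its control 5 of 5, led by CCNB2 (adjusted p = 3.55e-05). After quantile normalization the counts by limma were 4 of 10, 9 of 18, 2 of 7, 6 of 11, 8 of 10 and 5 of 5 in the same order, beside 45.1% of all genes.

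How the 9 genes moved together over the 29 samples was described by Spearman correlation of log2(FPKM + 1). The points share their libraries and depth, so no test is attached. Of 36 pairs 7 had a rho of at least 0.5, the median was 0.195 and the range -0.422 to 0.631. FBXO5 and CAMK2G had 0.631, MAPK3 and CAMK2G 0.626 and MAP2K1 and FBXO43 0.609. MOS and MAPK3 had 0.568, FBXO43 and PPP2R5C 0.531, MAPK3 and FZR1 0.526, and FBXO5 and FZR1 0.519. MOS and MAP2K1, kinase and substrate, had -0.343. MAPK3 and MAP2K2 had medians of 0.154 and 0.0661 FPKM, near the bottom of the scale, so correlations with them rest on low values. MAPK3 was above 0.5 FPKM in LMO 2 alone.

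Centring each gene within replicate number left 0.548 for FBXO5 and CAMK2G, 0.683 for MAPK3 and CAMK2G, 0.488 for MAP2K1 and FBXO43, 0.380 for MOS and MAPK3 and 0.703 for MAPK3 and FZR1. Without LLO 2, LLO 5 and LMO 2 the pair of MAPK3 and CAMK2G had 0.491, that of FBXO5 and CAMK2G 0.519 and that of MAP2K1 and FBXO43 0.497 (n = 26). FBXO5 and FZR1 had 0.489 there. Other pairs rose above 0.5 without these libraries. FBXO5 and FBXO43 went from 0.372 to 0.610, FBXO43 and CAMK2G from 0.273 to 0.512 and MOS and MAP2K2 from 0.395 to 0.517. The rho of FBXO43 and PPP2R5C was 0.00148 after median-of-ratios scaling. PPP2R5C had a rho of 0.848 with the first principal component, which held 39.0% of the variance (0.475 after median-of-ratios scaling and 0.555 within replicate number), and MAP2K1 one of 0.805 with the second, on which LLO 2 and LLO 5 stood apart. FBXO43 had 0.603 and MOS -0.565 with the second component.

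The genes whose levels were most like those of MOS were MRPL41, a mitochondrial ribosomal protein (rho 0.883), CCNO, cyclin O (0.880), and CLTA, a clathrin light chain (0.845), over 29 samples. Within replicate number these were 0.724, 0.749 and 0.573. Of the 9692 genes compared 436 had a rho of at least 0.5 with MOS. The genes most like FBXO43 were RAD21, a cohesin subunit (rho 0.918), CSPP1, a centrosome and spindle pole protein (0.897), and ERBIN, an adaptor protein (0.888), with 0.861, 0.861 and 0.852 within replicate number, and 1852 genes had at least 0.5.

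In the annotation columns of the table, 7 of the 9 genes carried the pathway term oocyte meiosis, all but MAP2K2 and FZR1. The term for oocyte maturation mediated by progesterone was attached to 4 of 9, MOS, MAP2K1, MAPK3 and FZR1. The identifiers were ENSCHIG00000011697 for MOS, ENSCHIG00000021340 for MAP2K1, ENSCHIG00000014919 for MAP2K2, ENSCHIG00000016099 for MAPK3 and ENSCHIG00000026682 for FBXO5. Those of the remaining genes were ENSCHIG00000008303 for FBXO43, ENSCHIG00000014824 for FZR1, ENSCHIG00000010155 for CAMK2G and ENSCHIG00000021833 for PPP2R5C.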

How the data were processed

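RNA-seq values of the 29 oocyte samples were taken as deposited. From goat genome alignments reduced to unique, non-duplicate reads, the authors had computed FPKM for every gene and sample with Cufflinks on Ensembl gene models; the aligner and genome build were not given in the sources used here. The columns matched the sample labels by name, and 1 further column of values, which matched no sample, was not used here. No pair of samples was identical. Gene names and terms were those of the table, and 9 of 9 names were also found in the RefSeq gene table; of the 21343 genes 3738 share a name with another, which makes them uncertain where named.

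Genes above 0.5 FPKM in at least 4 samples of a fit were tested on log2(FPKM + 1) with limma 3.58.1 (moderated test with trend, two-sided, Benjamini-Hochberg adjustment over all genes tested, threshold 0.05). Differences on this scale understate those of low genes. High and low fertility were compared at each follicle size with the groups concerned, and over all samples with size as a covariate. Follicle size and the interaction were tested by F-tests over all samples, and the test of replicate number was added after the values had been seen. The fits were tested on simulated data.

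Alternatives were a pseudocount of 0.1, no filter or a filter at 1 FPKM, median-of-ratios scaling, quantile normalization, array weights, a replicate block, 1 fit over all samples and each sample left out in turn. Fits without LLO 2 and LLO 5, and without LLO 2, LLO 5 and LMO 2, were added after the data had been seen. Named were the 9 genes and each list gene with an unadjusted p under 0.05 in any of the 6 comparisons. Also named were the gene with the highest mean in each list and the 3 genes with a unique name most like MOS and FBXO43. CPEB1, PLK1, UBE2C, CDC20 and the CaM kinase II and B56 genes were named after their values had been seen. A gene of the MAP kinase list is not reported here by name. The members and lists were chosen with earlier results of these data known. Software comprised R 4.3.3 for the fits, and matplotlib 3.10.9, scipy 1.17.1, pandas 2.3.3 and numpy 2.4.6 under Python 3.11.15 for levels and figures.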

Additional observations from a re-analysis of the deposited data

Results flagged for a closer look

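For each of the 9 genes and 6 groups it was asked whether 1 sample lay far from the others of its group, by the gap to its nearest neighbour relative to the range of the group. Of 54 groups tested 8 held such a sample, where chance gives about 1 in 20 groups, or 2.7, if the values are normal and independent. FPKM are skewed, all 8 were high values, and the genes share their libraries, so the 2.7 is no test of the 8. MOS was 74.6 FPKM in LLO 4, where the other LLO samples lay between 0.607 and 19.3 FPKM, and 148 FPKM in LSO 1, where the others lay between 3.39 and 42.5 FPKM. MAP2K1 was 56.5 FPKM in HMO 2, against 20.6 to 29.3 FPKM in the others. MAP2K2 was 0.245 FPKM in LLO 4, against 0 to 0.0481 FPKM, a level at which the gene was not tested. LMO 2 stood far from its group in 3 genes: MAPK3 was 0.781 FPKM there against 0.0899 to 0.257 FPKM, FZR1 5.08 FPKM against 0.657 to 1.09 FPKM, and CAMK2G 2.35 FPKM against 0.688 to 1.01 FPKM. CAMK2G was also high in LSO 1, at 1.88 FPKM against 0.772 to 0.945 FPKM. LMO 2 was the library with the lowest FPKM sum, and its part in these values was not tested.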

How the results depend on the processing

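No gene of the 9 passed the adjusted threshold in a fertility, size or interaction comparison under any alternative except array weights. Under array weights MAP2K1 (-0.92) and FBXO43 (-0.999) passed in medium follicles and FBXO43 (-0.62) over all sizes, so that the count of members rose to 2 and 1, and members with an unadjusted p under 0.05 to 4 of 7 and 2 of 7, beside 3341 of 8390 and 3278 of 9692 genes; the cause was not tested. Depth cannot be read from the FPKM and read totals were not used here, so what depth limits was not tested.

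Signs turned only in differences that had not passed. In large follicles median-of-ratios scaling gave 0.0177 for FZR1 and 0.0468 for PPP2R5C, quantile normalization 0.0253 for PPP2R5C, and array weights -0.12 for MAP2K1 and 0.0924 for FZR1. Array weights gave -0.45 for PPP2R5C in medium and 1.25 for MOS in small follicles. Over all sizes median-of-ratios scaling gave 0.0134 for MAP2K1 and 0.0560 for PPP2R5C, quantile normalization 0.0104 for PPP2R5C, and the fit without LLO 2, LLO 5 and LMO 2, chosen after the data had been seen, 0.0433 for MAP2K1. The cause was not tested in any of these.

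Counts of all genes with an adjusted p under 0.05 moved by over 1.5 times as follows. In large follicles the count went from 0 to 2 with array weights. In medium follicles it went from 6 to 0 without a filter, 13 with median-of-ratios scaling, 14 with quantile normalization, 1011 with array weights and 3 with 1 fit over all samples. In small follicles it went from 1 to 2 with the pseudocount of 0.1 and 0 with 1 fit over all samples. Over all sizes it went from 1 to 0 without a filter, with either scaling or without the 3 libraries, and to 691 with array weights. For the interaction it went from 0 to 2 with either scaling and 231 with array weights.

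Counts at an unadjusted p under 0.05 moved as well. In large follicles 345 became 609 without a filter, 540 with quantile normalization, 1372 with array weights, 1024 with 1 fit over all samples and 132 without LLO 2 and LLO 5. In medium follicles 727 became 1302 without a filter and 3341 with array weights, and in small follicles 369 became 743 and 679. Over all sizes 968 became 3278 with array weights and 467 without the 3 libraries, where members went from 1 to 0. For follicle size 161 became 364 without a filter, 817 with array weights and 74 without the 3 libraries. For the interaction 765 became 1197 without a filter and 1619 with array weights, and members went from 1 to 2 with the pseudocount of 0.1 and array weights and to 0 with either scaling.

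In the replicate number test array weights raised the count of all genes from 4890 to 7704 and of members from 3 to 5, with MAP2K1 (limma adjusted p = 0.0210) and FZR1 (limma adjusted p = 0.0238) added. Members with an unadjusted p under 0.05 went from 3 to 5 with either scaling and with array weights. By limma, median-of-ratios scaling gave unadjusted p-values of 0.0184 for MAP2K1, 0.00591 for FBXO5, 0.0429 for FBXO43, 0.00215 for FZR1 and 0.389 for PPP2R5C. Quantile normalization gave 0.00469, 0.00180, 0.0484, 0.000959 and 0.663 for the same genes, and the fit without the 3 libraries 0.0578 for FBXO43.

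The correlations were also computed after median-of-ratios scaling, and the following moved outside the range given by leaving out 1 sample. They became -0.469 for MOS, 0.582 for MAP2K1, -0.704 for MAP2K2 and 0.766 for FBXO43 with the second component, -0.879 for FZR1 and 0.475 for PPP2R5C with the first. Between genes they became 0.553 for MAP2K1 and FBXO43, 0.678 for MAPK3 and FZR1, 0.693 for MAPK3 and CAMK2G, 0.734 for FBXO5 and FZR1 and 0.00148 for FBXO43 and PPP2R5C.

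With each sample left out in turn, differences that changed sign ranged in large follicles from -0.13 to 0.19 (MAP2K1), -0.18 to 0.0721 (FZR1) and -0.30 to 0.10 (PPP2R5C). In medium follicles they ranged from -0.45 to 0.0139 (FZR1, above 0 only without LMO 2) and -0.18 to 0.16 (PPP2R5C), in small follicles from -1.31 to 0.28 (MOS, above 0 without HSO 3 or LSO 1) and -0.21 to 0.12 (PPP2R5C), and over all sizes from -0.11 to 0.0236 (PPP2R5C). Other differences that moved by over 1.5 times were, in large follicles, those of MOS (0.18 to 1.57), FBXO43 (-0.67 to -0.23) and CAMK2G (0.12 to 0.35), and in medium follicles those of MOS (0.84 to 2.10) and CAMK2G (-0.43 to -0.18). In small follicles they were those of MAP2K1 (0.24 to 0.59), FBXO5 (-0.53 to -0.0885), FBXO43 (-0.41 to -0.13), FZR1 (-0.47 to -0.20) and CAMK2G (-0.34 to -0.16). Over all sizes they were those of MOS (0.38 to 0.85), MAP2K1 (-0.15 to -0.0315), FBXO5 (-0.20 to -0.0372), FZR1 (-0.29 to -0.13) and CAMK2G (-0.18 to -0.0703). The unadjusted limma p of the interaction ranged from 0.00843 to 0.0687 for FBXO5, 0.0182 to 0.182 for CAMK2G and 0.0283 to 0.190 for MAP2K1. Genes with an adjusted p under 0.05 ranged from 0 to 1 in large, 0 to 160 in medium and 0 to 2 in small follicles, 0 to 2 over all sizes and 0 to 59 for the interaction; the 160 and the 59 were reached without HMO 2. Genes with an unadjusted p under 0.05 ranged from 152 to 879, 398 to 1046 and 153 to 643 in large, medium and small follicles and from 85 to 489 for follicle size. Members with an unadjusted p under 0.05 ranged from 0 to 1 in medium follicles and over all sizes and from 0 to 2 for the interaction. FBXO43 fell to 0 such calls over all sizes without HLO 3, HLO 4, HMO 3, HMO 4, LLO 5, LMO 4 or LMO 5. The limma p of replicate number ranged from 0.00313 to 0.0453 for FBXO43 and from 0.0222 to 0.233 for FZR1, which passed only without LSO 1.

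The replicate block, a fit with the replicate number as a blocking term, moved counts of genes but left 0 members with an adjusted p under 0.05. Genes with an adjusted p under 0.05 went to 1 in large, 127 in medium and 0 in small follicles and to 70 for the interaction; at an unadjusted p under 0.05 there were 684, 1376 and 788 genes, 1461 over all sizes, 277 for follicle size and 1405 for the interaction. Members with an unadjusted p under 0.05 went from 0 to 2 in medium follicles and from 1 to 2 for the interaction. As a check of pairing, deviations from the group means were correlated between samples of different groups. The 70 pairs with the same number had a median r of 0.470, from -0.572 upward, with 55 of 70 over 0.1. The 280 pairs with different numbers had a median of -0.176. For 20 of 29 samples, the number with the highest mean correlation, taken over samples of other groups, was their own. Since not every pair was over 0.1 and the labels do not say what a number stands for, the numbers were not taken to pair the samples.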
